A study of Homo sapiens with 18 samples.

Results

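The heat shock proteins and DNAJ co-chaperones were all genes of the expression table whose symbol begins with HSP90 or DNAJ, or with HSP followed by A, B, D, E or H. The rule found 60 of 13141 genes. They were 3 HSP90 genes, 11 HSP70 genes, 3 HSP110 genes, 4 small heat shock protein genes, 2 mitochondrial chaperonin genes, 2 genes named for binding a heat shock protein (HSPBAP1 and HSPBP1) and 35 DNAJ genes, of which 3 were DNAJA, 8 DNAJB and 24 DNAJC. HSPA7, counted under HSP70, and HSPBL2, counted under the small heat shock proteins, are annotated as pseudogenes. No measured value entered the rule.

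The signals come from 18 bead arrays (Illumina HumanHT-12 V4) of 786-O, an established clear cell renal carcinoma line that lacks functional VHL, the ubiquitin ligase subunit that targets HIF for degradation. The 6 groups of 3 arrays crossed VHL state with 3 hairpins. The VHL-/- cells were the line as it is and the VHL+/+ cells were the same line with VHL put back; each carried stably a control hairpin (SCR), PBRM1 shRNA-94 or KDM5C shRNA-60. PBRM1 is a subunit of a SWI/SNF chromatin remodelling complex and KDM5C a histone H3 lysine 4 demethylase, and each was targeted by a single hairpin on these arrays. The sources used here do not say that the 3 arrays of a group came from separate cultures, so the p-values measure the spread between arrays, which may be technical.

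In every group replicates 1 and 2 were on chip 1 and replicate 3 on chip 2, so the chip and whatever else set replicate 3 apart cannot be told apart. PBRM1 mRNA did not pass as lower on the arrays labelled PBRM1 shRNA. Its log2 difference from SCR was -0.06 in VHL-/- cells (limma adjusted p = 0.864) and -0.15 in VHL+/+ cells (adjusted p = 0.639). Its mean signal lay under the median gene (7.29 against 7.65). KDM5C was not analysed here. The authors describe both genes as stably knocked down in these cells, and ran western blots on 786-O cells with either suppressed. Of 14 measured HIF target genes, which VHL keeps low, 7, 10 and 11 were lower in VHL+/+ cells with SCR, PBRM1 shRNA and KDM5C shRNA, against 1.89%, 1.16% and 1.56% of all genes. VHL mRNA itself did not pass as higher in VHL+/+ cells (log2 differences 0.08, 0.17 and -0.01, adjusted p 0.766, 0.447 and 0.976). Of the renal markers PAX8, KRT8, KRT18, VIM, CDH2, MET, CD70 and PAX2, PAX2 was not analysed here. The others read 13.94 (VIM), 12.51 (CD70), 12.30 (CDH2), 10.74 (MET), 9.84 (KRT8), 8.50 (PAX8) and 7.31 (KRT18) on average. KRT18 lay under the median gene (7.65). MET was lower with KDM5C shRNA in VHL+/+ cells (-0.65, adjusted p = 0.0121). PECAM1, COL1A1 and COL3A1, markers of endothelium and fibroblasts, lay between 6.72 and 6.81, with 3 measured of 8 listed. Of 4 leukocyte markers CD68 was measured (8.57), and it was lower with VHL in SCR cells (log2 difference -0.44). The part of MET and CD68 in the results was not tested.

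Chaperones of these families keep proteins folded. HSP70 proteins bind unfolded stretches in a cycle driven by ATP. DNAJ proteins bring clients to HSP70 and trigger hydrolysis, and HSP110 proteins release the nucleotide. HSP90 finishes the folding of kinases and receptors, small heat shock proteins hold unfolded proteins without ATP, and HSPD1 with HSPE1 forms the folding chamber of mitochondria. Under heat or proteotoxic stress the factor HSF1 binds heat shock elements, repeats of GAA and TTC, in the promoters of many cytosolic members, while HSPA5, HSP90B1 and DNAJB9 belong to the unfolded protein response of the endoplasmic reticulum (ER). HSP90 is also known to bind the alpha subunits of HIF.

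Promoter windows are printed for the member with the largest fold change among those that passed (HSPB8), for 3 members that were lower on chip 2 than on chip 1 (HSPA1A, HSPA8 and DNAJA1), and for HSPA5, the main ER chaperone. Each runs from 250 bases before to 50 bases after the start used in the RefSeq table, 5′ to 3′ on the gene's strand, in RefSeq's GRCh38.p14. Capitals mark matches to a heat shock element (GAANNTTC or TTCNNGAA) in the first 4 and to the ER stress element (ERSE, the box bound by NF-Y and ATF6) in HSPA5. Both strands were searched, and overlapping matches were counted one by one.
HSPB8: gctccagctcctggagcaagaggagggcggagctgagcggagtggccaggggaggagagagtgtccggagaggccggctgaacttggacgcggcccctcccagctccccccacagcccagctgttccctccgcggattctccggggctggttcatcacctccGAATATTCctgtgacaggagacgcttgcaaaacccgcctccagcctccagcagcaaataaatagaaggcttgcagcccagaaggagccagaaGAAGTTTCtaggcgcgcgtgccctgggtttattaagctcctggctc
HSPA1A: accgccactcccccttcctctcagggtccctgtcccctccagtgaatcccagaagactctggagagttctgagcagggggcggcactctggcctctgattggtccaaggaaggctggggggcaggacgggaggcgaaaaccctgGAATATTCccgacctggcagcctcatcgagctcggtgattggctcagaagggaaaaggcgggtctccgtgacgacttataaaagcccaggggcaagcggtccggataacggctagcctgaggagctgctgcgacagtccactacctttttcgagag
HSPA8: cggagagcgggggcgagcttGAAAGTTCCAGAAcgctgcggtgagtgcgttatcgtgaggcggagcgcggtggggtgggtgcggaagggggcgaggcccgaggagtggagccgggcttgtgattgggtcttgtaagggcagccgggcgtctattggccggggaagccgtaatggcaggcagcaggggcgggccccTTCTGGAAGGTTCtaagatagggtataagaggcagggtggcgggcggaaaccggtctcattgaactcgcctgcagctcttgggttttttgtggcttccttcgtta
DNAJA1: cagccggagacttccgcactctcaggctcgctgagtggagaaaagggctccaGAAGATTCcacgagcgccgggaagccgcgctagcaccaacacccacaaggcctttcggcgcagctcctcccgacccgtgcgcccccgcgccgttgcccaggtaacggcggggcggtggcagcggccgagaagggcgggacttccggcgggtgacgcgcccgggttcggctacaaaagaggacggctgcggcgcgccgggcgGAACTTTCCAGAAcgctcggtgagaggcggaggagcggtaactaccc
HSPA5: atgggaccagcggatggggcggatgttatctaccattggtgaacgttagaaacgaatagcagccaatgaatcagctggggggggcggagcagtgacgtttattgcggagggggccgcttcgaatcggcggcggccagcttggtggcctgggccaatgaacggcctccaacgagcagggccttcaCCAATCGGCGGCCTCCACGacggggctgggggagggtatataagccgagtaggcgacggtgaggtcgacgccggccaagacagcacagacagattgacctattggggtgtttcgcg
The windows lie at chr12:119178681-119178980 (HSPB8, plus strand, 2 matches), chr6:31815293-31815592 (HSPA1A, plus, 1 match), chr11:123062087-123062386 (HSPA8, minus, 4 matches), chr9:33025023-33025322 (DNAJA1, plus, 3 matches) and chr9:125241294-125241593 (HSPA5, minus, 1 match). The start lies at the outer end of the annotated gene for 4 of the 5, while that of HSPA8 lies 326 bases inside it. A window was given for 54 members, with an inner start in 6. A heat shock element was found in 11 of them (20.4%), in 13.7% of all 27305 promoters and in 10.4% of the 8496 promoters of genes in the table. Of the 16 members lower on chip 2 with a window, 5 held such an element, and the 3 printed are among these 5. HSPH1, HSP90AA1, HSP90AB1 and HSPA4L, also lower on chip 2, held none. At least 2 matches were found in 4 members (HSPB8, HSPA8, DNAJA1 and DNAJB6, 7.41%), in 1.7% of all promoters and in 1.07% of those of genes in the table. The ER stress element was found in HSPA5 and HSP90B1 (3.7% of members), in 0.0806% of all promoters and in 0.165% of those of genes in the table. The HIF core ACGTG was found in 40.7% of members, 21.6% of all promoters and 26.2% of those of genes in the table. The windows of HSPA1A and HSPA1L overlap and count the same heat shock element, and those of HSPD1 and HSPE1 overlap too. HSPA1B is a near-identical copy of HSPA1A, so the members' matches are not all independent. These matches describe letters in a window and say nothing of binding in these cells.

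The values are log2 array signals. A probe's signal depends on its sequence, so one gene's level is not set against another's here, but its place in the table shows whether it was above the dimmest genes. Of the 60 members 41 lay above the median gene (7.65). The 5 members under the lower quartile of the table (6.90) were HSPA1L, HSPA2, HSPA7, HSPB3 and DNAJC5G. Members scattered a little more than other genes, with a median residual SD of 0.139 against 0.118 over all genes. HSPA1A, the stress-inducible HSP70, scattered most (0.577), followed by HSPE1 (0.450), HSPA4L (0.290), DNAJC25 (0.269) and HSPA1B (0.268).

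Few members differed between groups. In 7 comparisons of 2 groups, 5 of 60 members (8.33%) passed an adjusted p of 0.05 at least once, against 12.5% of all genes. These were HSPB8, DNAJB2, HSPA12A, DNAJC12 and DNAJC13, none of them among the HSP90, HSP110, chaperonin or DNAJA genes. HSPB8 was the one member that also passed a fold of 1.5, and no member reached 2-fold in any comparison with a passing p. The adjusted p-values are limma's, over all 13141 genes, from a fit with group and chip. At an unadjusted p under 0.05 the 7 comparisons had 9 to 15 members (15% to 25%), against 13.5% to 18.4% of all genes.

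**Figure D1:**
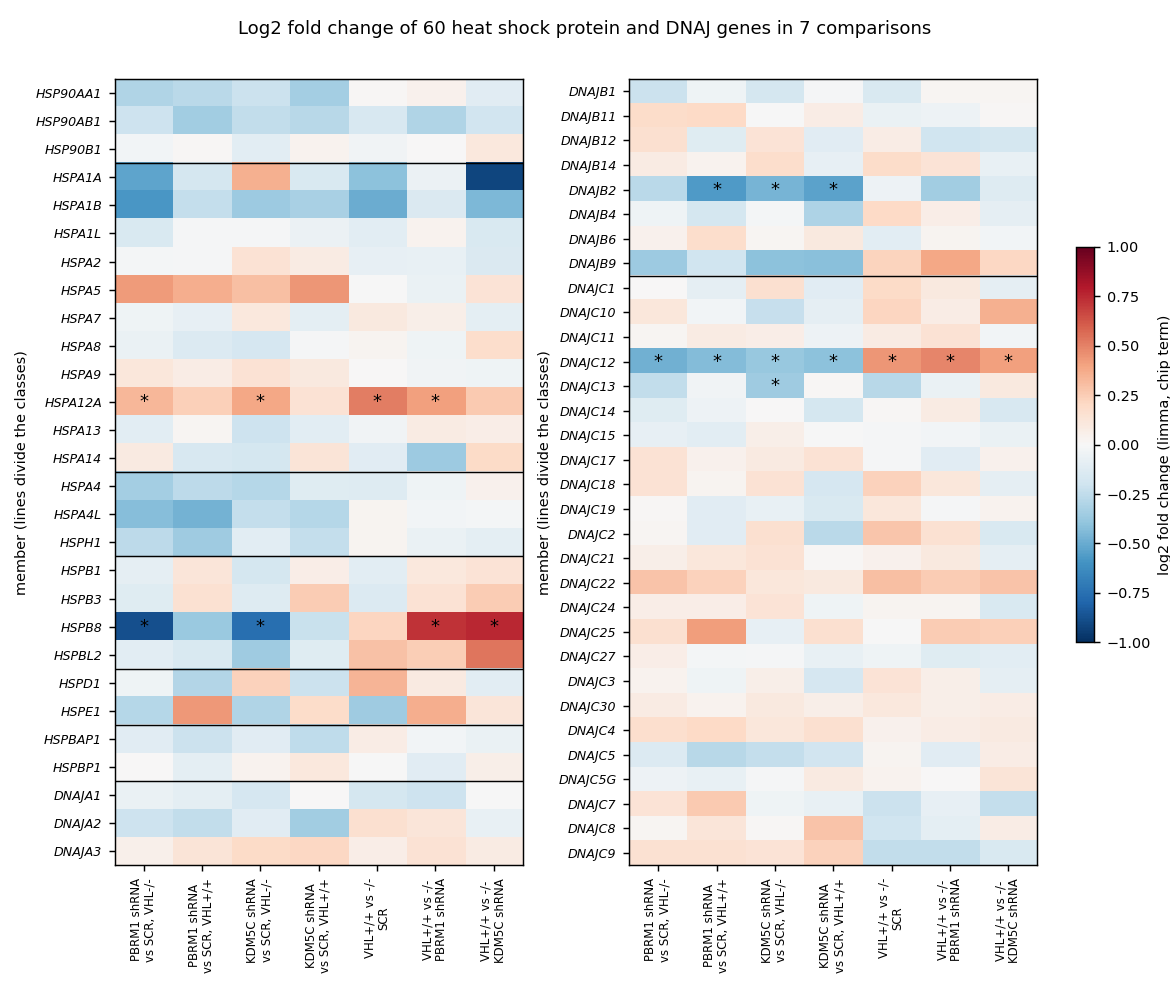
Log2 fold change (colour) of each of the 60 members (rows, by class) in the 4 hairpin comparisons with SCR and the 3 comparisons of VHL+/+ with VHL-/- cells (columns). Stars mark adjusted p under 0.05, and all of them fall on HSPB8, DNAJB2, HSPA12A, DNAJC12 and DNAJC13.

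With PBRM1 shRNA in VHL-/- cells, HSPB8 and DNAJC12 fell and HSPA12A rose, 3 members of 60 (5%) against 5.43% of all genes. Of all genes 2.79% were higher and 2.65% lower, and 1.81% also passed a fold of 1.5, as HSPB8 did. With PBRM1 shRNA in VHL+/+ cells, DNAJB2 and DNAJC12 fell, 2 members (3.33%) against 2.49% of all genes (1.59% higher, 0.898% lower, 0.944% with the fold). With KDM5C shRNA in VHL-/- cells, HSPB8, DNAJB2, DNAJC12 and DNAJC13 fell and HSPA12A rose, 5 members (8.33%) against 4.78% of all genes (2.4% higher, 2.37% lower, 1.46% with the fold). With KDM5C shRNA in VHL+/+ cells, DNAJB2 and DNAJC12 fell, 2 members (3.33%) against 4.19% of all genes (2.39% higher, 1.8% lower, 1.14% with the fold). The hairpin groups of a VHL state share their SCR arrays.

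VHL+/+ against VHL-/- cells gave higher values among the passing members. HSPA12A and DNAJC12 rose in SCR cells, 2 members (3.33%) against 3.2% of all genes (1.3% higher, 1.89% lower, 1.03% with a fold of 1.5). HSPB8, HSPA12A and DNAJC12 rose in PBRM1 shRNA cells, 3 members (5%) against 2.37% of all genes (1.21% higher, 1.16% lower, 1.02% with the fold). HSPB8 and DNAJC12 rose in KDM5C shRNA cells, 2 members (3.33%) against 2.77% of all genes (1.21% higher, 1.56% lower, 0.89% with the fold). By direction, the members called were 3.33% lower and 1.67% higher with PBRM1 shRNA in VHL-/- cells, 6.67% lower and 1.67% higher with KDM5C shRNA in VHL-/- cells, and 3.33% or 5% in the 1 direction called in the other comparisons. Each of these shares rests on 1 to 4 genes.

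HSPB8 is a small heat shock protein that works with BAG3 and HSP70 to send misfolded proteins to autophagy (chromosome 12, 119178931 to 119194746). In VHL-/- cells its signal was 9.69, 9.84 and 10.01 with SCR, 9.09, 8.85 and 8.97 with PBRM1 shRNA, and 8.83, 9.33 and 9.11 with KDM5C shRNA. HSPB8 in VHL+/+ cells was 9.75, 10.19 and 10.26 with SCR, 9.67, 9.70 and 9.71 with PBRM1 shRNA, and 9.73, 9.82 and 9.99 with KDM5C shRNA. The 6 hairpin arrays in VHL-/- cells were thus the lowest of all 18, with no overlap with any other group.

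HSPB8 fell to 54.5% of SCR with PBRM1 shRNA in VHL-/- cells (log2 fold change -0.88 ± 0.127 SE, n = 3 against 3, limma adjusted p = 5.58e-04). It fell to 59.2% with KDM5C shRNA (-0.76 ± 0.127, adjusted p = 0.00209). The arrays read bulk RNA, so fewer expressing cells and less RNA per cell cannot be told apart. The difference was -0.80 on chip 1 and -1.04 on chip 2 for PBRM1 shRNA, and -0.69 and -0.90 for KDM5C shRNA. In VHL+/+ cells the values were -0.37 (adjusted p = 0.148) for PBRM1 shRNA, whose arrays did not overlap with SCR, and -0.22 (adjusted p = 0.389) for KDM5C shRNA, whose arrays did.

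Among cells with a hairpin against PBRM1 or KDM5C, HSPB8 was higher with VHL. It rose by 0.72 with PBRM1 shRNA (adjusted p = 0.00416) and by 0.75 with KDM5C shRNA (adjusted p = 0.00355). Between the SCR groups the difference was 0.22 (adjusted p = 0.462) and the arrays overlapped. The difference of the hairpin effect between VHL states was itself 0.50 for PBRM1 shRNA (unadjusted p = 0.0122, adjusted p = 1.00, 95% interval 0.13 to 0.88) and 0.54 for KDM5C shRNA (unadjusted p = 0.00827, adjusted p = 0.443, interval 0.16 to 0.92). Neither passed adjustment over all genes, so a hairpin effect on HSPB8 that differs with VHL was not established. The rise with VHL in KDM5C shRNA cells did not pass when only the 6 arrays of the comparison were fitted (adjusted p = 0.0924).

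**Figure D2:**
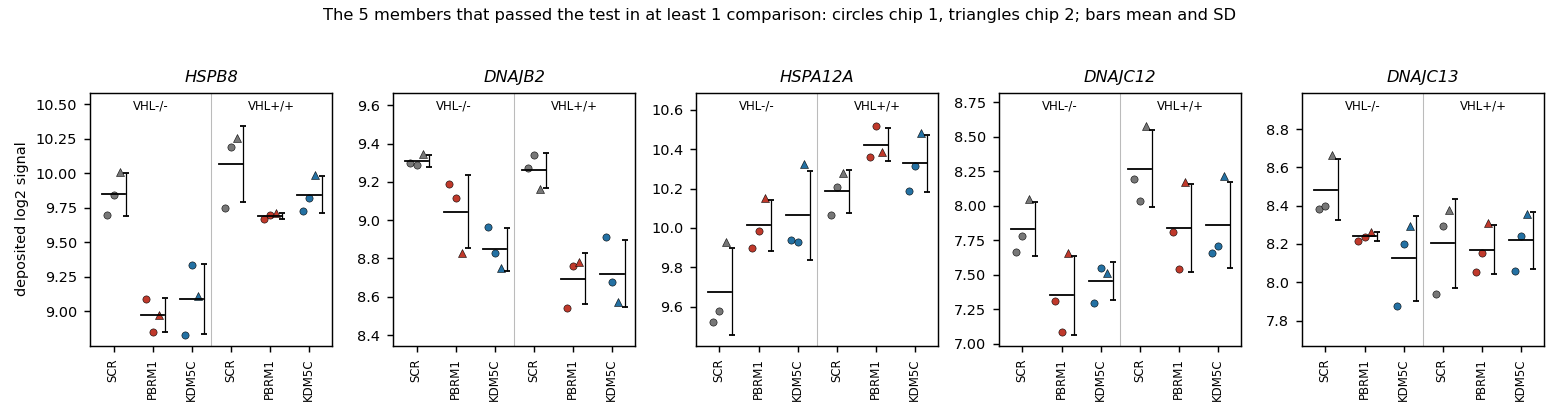
Deposited log2 signal of HSPB8, DNAJB2, HSPA12A, DNAJC12 and DNAJC13 on each array (circles chip 1, triangles chip 2), by hairpin within VHL-/- and VHL+/+ cells, with the mean (line) and SD (bar) of 3 arrays. HSPB8 is lowest on the 6 hairpin arrays of VHL-/- cells (8.83 to 9.33), and DNAJB2 is highest on the 6 SCR arrays apart from 1 PBRM1 shRNA array (9.19) above the lowest SCR array (9.16).

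DNAJB2 is a co-chaperone that carries ubiquitin-binding motifs and passes HSP70 clients to the proteasome (chromosome 2, 219279366 to 219286895). In VHL-/- cells it read 9.30, 9.29 and 9.35 with SCR, 9.19, 9.11 and 8.83 with PBRM1 shRNA, and 8.97, 8.83 and 8.75 with KDM5C shRNA. DNAJB2 in VHL+/+ cells read 9.27, 9.34 and 9.16 with SCR, 8.54, 8.76 and 8.78 with PBRM1 shRNA, and 8.91, 8.68 and 8.57 with KDM5C shRNA. Within each VHL state every hairpin array lay under all SCR arrays.

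DNAJB2 fell by 0.57 ± 0.0969 (SE) on the log2 scale with PBRM1 shRNA in VHL+/+ cells (limma adjusted p = 0.00375). It fell by 0.46 with KDM5C shRNA in VHL-/- cells (adjusted p = 0.00945) and by 0.54 in VHL+/+ cells (adjusted p = 0.00512). The value with PBRM1 shRNA in VHL-/- cells was -0.27 (adjusted p = 0.138). The fall with KDM5C shRNA in VHL-/- cells did not pass without VHL-/- SCR replicate 3 (adjusted p = 0.0588). VHL+/+ minus VHL-/- was -0.35 with PBRM1 shRNA (adjusted p = 0.074), and this passed without VHL+/+ PBRM1 shRNA replicate 3 (adjusted p = 0.0472) or VHL-/- PBRM1 shRNA replicate 3 (adjusted p = 0.0405).

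HSPA12A is a distant member of the HSP70 family with an atypical ATPase domain (chromosome 10, 116671192 to 116850747). In VHL-/- cells it read 9.52, 9.58 and 9.93 with SCR, 9.90, 9.99 and 10.15 with PBRM1 shRNA, and 9.94, 9.93 and 10.32 with KDM5C shRNA. HSPA12A in VHL+/+ cells read 10.07, 10.21 and 10.28 with SCR, 10.36, 10.52 and 10.39 with PBRM1 shRNA, and 10.19, 10.31 and 10.48 with KDM5C shRNA. The VHL-/- SCR arrays were low, and their replicate 3 reached into both hairpin groups.

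The largest difference of HSPA12A was between the SCR groups, where it rose by 0.51 ± 0.0883 (SE) with VHL (adjusted p = 0.0045), without overlap. It rose by 0.41 with VHL in PBRM1 shRNA cells (adjusted p = 0.0191) and was 0.26 higher in KDM5C shRNA cells (adjusted p = 0.147). In VHL-/- cells it rose by 0.34 with PBRM1 shRNA (adjusted p = 0.0334) and by 0.39 with KDM5C shRNA (adjusted p = 0.0171). In VHL+/+ cells the values were 0.24 (adjusted p = 0.198) and 0.14 (adjusted p = 0.429). None of the 4 passing values of HSPA12A passed with group alone in the fit (adjusted p 0.0719 to 0.237). With only the arrays of the comparison the rise with VHL in PBRM1 shRNA cells did not pass (0.141), nor did the rise with PBRM1 shRNA in VHL-/- cells with robust trended eBayes (0.0698).

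Single arrays decided 3 of these calls on HSPA12A. The rise with PBRM1 shRNA in VHL-/- cells did not pass without any 1 of VHL-/- SCR replicates 1 and 2 and VHL-/- PBRM1 shRNA replicates 1, 2 and 3 (adjusted p 0.0648 to 0.144). The rise with KDM5C shRNA did not pass without VHL-/- SCR replicate 1 or 2 or VHL-/- KDM5C shRNA replicate 3 (0.0716 to 0.0903). The rise with VHL in PBRM1 shRNA cells did not pass without VHL+/+ PBRM1 shRNA replicate 1 or 2 or VHL-/- PBRM1 shRNA replicate 1 or 3 (0.0556 to 0.101).

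DNAJC12 is a co-chaperone of the aromatic amino acid hydroxylases (chromosome 10, 67796669 to 67838188). In VHL-/- cells it read 7.67, 7.78 and 8.05 with SCR, 7.31, 7.08 and 7.66 with PBRM1 shRNA, and 7.29, 7.55 and 7.51 with KDM5C shRNA. DNAJC12 in VHL+/+ cells read 8.19, 8.04 and 8.58 with SCR, 7.81, 7.54 and 8.17 with PBRM1 shRNA, and 7.65, 7.71 and 8.22 with KDM5C shRNA. SCR arrays were higher than hairpin arrays of the same VHL state on the same chip, and in VHL-/- cells the groups did not overlap, whereas in VHL+/+ cells replicate 3 of each hairpin group exceeded the lowest SCR array.

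DNAJC12 passed in all 7 comparisons. It fell by 0.48 ± 0.106 (SE) with PBRM1 shRNA in VHL-/- cells (adjusted p = 0.0119) and by 0.43 in VHL+/+ cells (0.0388). It fell by 0.38 with KDM5C shRNA in VHL-/- cells (adjusted p = 0.04995) and by 0.41 in VHL+/+ cells (0.0387). With VHL it rose by 0.44 in SCR cells (adjusted p = 0.0323), by 0.49 in PBRM1 shRNA cells (0.0191) and by 0.41 in KDM5C shRNA cells (0.0489). None of the 7 passed without the chip term (adjusted p 0.273 to 0.493), and DNAJC12 was 0.39 higher on chip 2 than on chip 1. With only the arrays of each comparison 4 of the 7 did not pass, namely PBRM1 shRNA in VHL+/+ cells (0.0514), KDM5C shRNA in VHL-/- cells (0.0953) and VHL in PBRM1 shRNA (0.120) and KDM5C shRNA cells (0.259).

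The DNAJC12 calls lay close to the threshold and each was lost when some single array was left out. With PBRM1 shRNA in VHL-/- cells these were VHL-/- SCR replicate 2 and VHL-/- PBRM1 shRNA replicate 2 (adjusted p 0.0664 and 0.0727). With PBRM1 shRNA in VHL+/+ cells they were VHL+/+ SCR replicates 1, 2 and 3, VHL+/+ PBRM1 shRNA replicates 2 and 3, VHL+/+ KDM5C shRNA replicate 2 and VHL-/- SCR replicates 1 and 3 (0.0508 to 0.216). With KDM5C shRNA in VHL-/- cells 15 of the 18 arrays had this effect, up to 0.206 without VHL-/- KDM5C shRNA replicate 3, and the exceptions were VHL+/+ PBRM1 shRNA, VHL-/- PBRM1 shRNA and VHL-/- KDM5C shRNA replicate 2. With KDM5C shRNA in VHL+/+ cells they were VHL+/+ SCR replicates 1 and 3, VHL+/+ KDM5C shRNA replicates 1, 2 and 3 and VHL-/- SCR replicate 3 (0.0501 to 0.154).

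For VHL in SCR cells the arrays were VHL+/+ SCR replicates 1 and 3 and VHL-/- SCR replicates 1, 2 and 3 (0.0682 to 0.145). For VHL in PBRM1 shRNA cells they were VHL+/+ PBRM1 shRNA replicates 1 and 3 and VHL-/- PBRM1 shRNA replicate 2 (0.0739 to 0.120). For VHL in KDM5C shRNA cells 14 of the 18 arrays had this effect, up to 0.199 without VHL+/+ KDM5C shRNA replicate 3, and the exceptions were VHL+/+ PBRM1 shRNA replicate 2, VHL-/- PBRM1 shRNA replicates 2 and 3 and VHL-/- KDM5C shRNA replicate 2. The sign of the DNAJC12 difference stayed the same in every one of these fits.

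DNAJC13, which acts with HSC70 on endosomes (chromosome 3, 132417502 to 132539032), read 8.38, 8.40 and 8.67 with SCR, 8.22, 8.24 and 8.26 with PBRM1 shRNA, and 7.87, 8.20 and 8.30 with KDM5C shRNA in VHL-/- cells. DNAJC13 in VHL+/+ cells read 7.94, 8.30 and 8.38, then 8.05, 8.15 and 8.31, then 8.06, 8.24 and 8.36 in the same order. Both hairpin groups lay under SCR in VHL-/- cells, and all 3 groups overlapped in VHL+/+ cells. It fell by 0.36 with KDM5C shRNA in VHL-/- cells (adjusted p = 0.0442), and leaving out any 1 of 13 arrays ended this call, among them VHL-/- SCR replicate 1, 2 or 3 and VHL-/- KDM5C shRNA replicate 1 or 3 (adjusted p 0.0767 to 0.168). It was also lost without the chip term (0.212), with only the arrays of the comparison (0.108) and with robust trended eBayes (0.0575). The other 8 arrays were VHL+/+ SCR replicate 3, VHL+/+ PBRM1 shRNA replicates 1, 2 and 3, VHL+/+ KDM5C shRNA replicates 2 and 3 and VHL-/- PBRM1 shRNA replicates 1 and 2 (0.0505 to 0.0580).

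Among the HSP90 genes none passed in any of the 7 comparisons by limma. At an unadjusted p under 0.05, 1 and 2 of the 3 were lower with PBRM1 shRNA in VHL-/- and VHL+/+ cells, 1 was with KDM5C shRNA in VHL+/+ cells, and 1 with VHL in PBRM1 shRNA cells, against 18.1%, 15.3%, 18.4% and 13.5% of all genes. HSP90AA1, the inducible cytosolic form, read 12.67, 12.71 and 12.46 with SCR, 12.32, 12.48 and 12.13 with PBRM1 shRNA, and 12.49, 12.81 and 11.90 with KDM5C shRNA in VHL-/- cells. HSP90AA1 in VHL+/+ cells read 12.70, 12.83 and 12.35, then 12.68, 12.50 and 11.88, then 12.45, 12.62 and 11.79. Replicate 3 was the lowest array of each group, and groups overlapped.

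The 4 hairpin differences of HSP90AA1 ran from -0.34 (95% interval -0.60 to -0.08, adjusted p = 0.135) to -0.22 (adjusted p = 0.399). HSP90AB1, the constitutive cytosolic form, ran from 11.15 to 12.43 with hairpin differences from -0.35 (adjusted p = 0.23) to -0.21 (adjusted p = 0.494). HSP90B1, the ER form, stayed between 12.16 and 12.60 with hairpin differences from -0.10 to 0.04. HSP90AB1 fell by 0.43 with PBRM1 shRNA in VHL-/- cells when VHL-/- PBRM1 shRNA replicate 3 was left out (adjusted p = 0.0298), the array on which it did not show the low chip 2 value of the other groups.

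Of the 11 HSP70 genes HSPA12A alone passed at least once, as did 12.5% of all genes. HSPA5, the ER chaperone BiP, read 9.70, 9.49 and 9.20 with SCR, 9.96, 9.99 and 9.71 with PBRM1 shRNA, and 9.60, 10.08 and 9.61 with KDM5C shRNA in VHL-/- cells. HSPA5 in VHL+/+ cells read 9.30, 9.50 and 9.56, then 9.77, 9.80 and 9.87, then 10.07, 9.85 and 9.78, so that both hairpin groups lay above SCR there. Without VHL the PBRM1 shRNA arrays lay above SCR and the KDM5C shRNA arrays overlapped with it. The 4 hairpin differences of HSPA5 were 0.42 (95% interval 0.15 to 0.70, adjusted p = 0.069) and 0.36 (adjusted p = 0.172) for PBRM1 shRNA in VHL-/- and VHL+/+ cells, and 0.30 (adjusted p = 0.226) and 0.44 (adjusted p = 0.0648) for KDM5C shRNA.

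Both HSPA5 values nearest the threshold crossed it in other fits. With only the 6 arrays of the comparison the rise passed for PBRM1 shRNA in VHL-/- cells (adjusted p = 0.0149) and for KDM5C shRNA in VHL+/+ cells (0.0457). Without VHL-/- KDM5C shRNA replicate 2 the adjusted p was 0.0348 and 0.0337. For KDM5C shRNA in VHL+/+ cells HSPA5 also passed without VHL+/+ SCR replicate 3 (0.0488) or VHL-/- KDM5C shRNA replicate 1 (0.0496).

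HSPA1A and HSPA1B encode the stress-inducible HSP70 and are near-identical copies (chromosome 6, from 31815543 and 31827738), so their signals may not be separable. HSPA1A read 8.86, 9.41 and 7.87 with SCR, 8.07, 8.27 and 8.23 with PBRM1 shRNA, and 8.72, 10.54 and 7.94 with KDM5C shRNA in VHL-/- cells. HSPA1A in VHL+/+ cells read 8.28, 8.79 and 7.84, then 8.41, 8.31 and 7.67, then 7.82, 8.69 and 7.93. The single array at 10.54 stood above all others, and no comparison of HSPA1A passed (log2 differences -0.92 to 0.35, SE 0.392).

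HSPA1B read 11.51, 11.83 and 10.95 with SCR, 10.86, 11.09 and 10.58 with PBRM1 shRNA, and 11.54, 11.56 and 10.09 with KDM5C shRNA in VHL-/- cells. HSPA1B in VHL+/+ cells read 10.89, 11.56 and 10.34, then 11.00, 11.01 and 10.08, then 10.66, 10.95 and 10.23. It was low on chip 2 in every group. The difference with PBRM1 shRNA in VHL-/- cells was -0.59 (95% interval -0.98 to -0.19, adjusted p = 0.0873), which passed with only the arrays of the comparison (0.0149), and when replicate 3 of VHL-/- PBRM1 shRNA (0.0321) or of VHL-/- KDM5C shRNA (0.0312) was left out. Without the latter array HSPA1B was also lower with VHL in KDM5C shRNA cells (-0.70, adjusted p = 0.0406).

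HSPA8, the constitutive cytosolic HSC70, ran from 12.46 to 13.50 and HSPA9, the mitochondrial HSP70, from 11.51 to 12.09. In VHL-/- cells HSPA8 read 13.24, 13.32 and 13.03 with SCR, 13.15, 13.20 and 13.05 with PBRM1 shRNA, and 13.27, 13.13 and 12.69 with KDM5C shRNA. HSPA8 in VHL+/+ cells read 13.36, 13.45 and 12.87, then 13.31, 13.50 and 12.46, then 13.16, 13.50 and 12.97. The groups overlapped, the 7 differences of HSPA8 ran from -0.16 to 0.18, and its 95% intervals ran from -0.45 to 0.46.

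HSPA9 read 11.92, 11.73 and 11.54, then 11.86, 11.81 and 11.85, then 12.09, 11.93 and 11.60 with SCR, PBRM1 shRNA and KDM5C shRNA in VHL-/- cells. HSPA9 in VHL+/+ cells read 11.84, 11.85 and 11.51, then 11.79, 11.97 and 11.65, then 11.74, 11.99 and 11.77. All 6 groups of HSPA9 overlapped, with differences from -0.04 to 0.15.

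**Figure D3:**
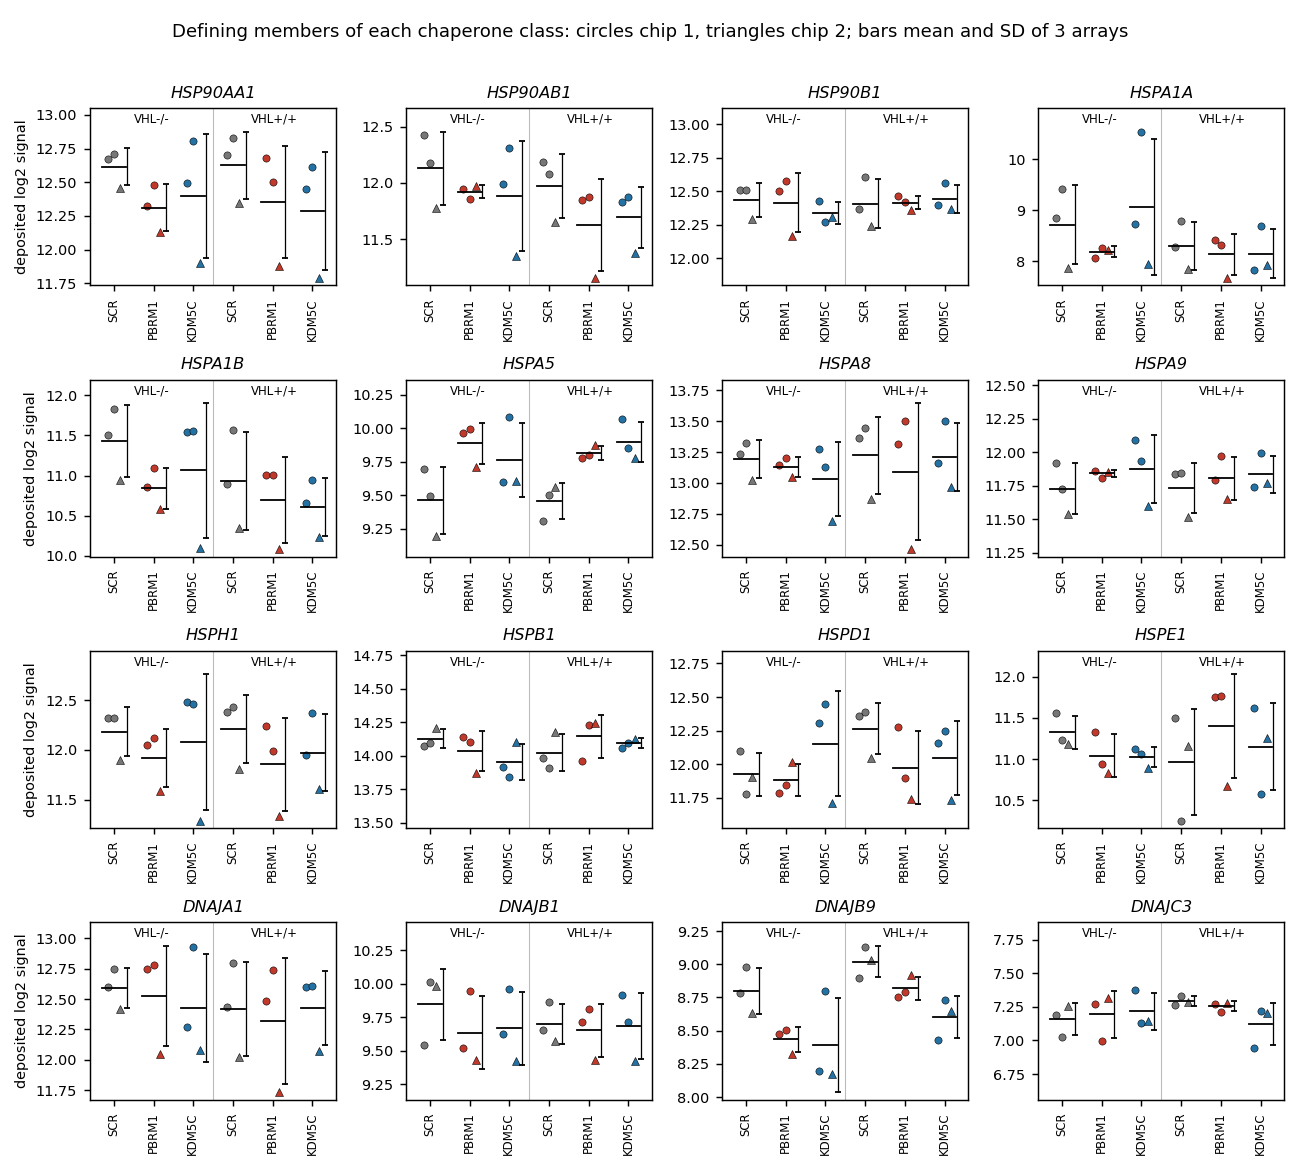
Deposited log2 signal of 16 defining members on each array (circles chip 1, triangles chip 2), by hairpin within VHL-/- and VHL+/+ cells, with the mean (line) and SD (bar) of 3 arrays. The chip 2 array is the lowest of its group in all 6 groups for HSP90AA1, HSPA1B, HSPA8, HSPH1 and DNAJA1, HSPA1A has 1 array at 10.54, and HSPA5 lies above SCR in both hairpin groups of VHL+/+ cells.

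The HSP110 genes HSPA4, HSPA4L and HSPH1, exchange factors for HSP70, were below SCR in each of the 4 hairpin comparisons, which share SCR arrays in pairs. None passed by limma, and at an unadjusted p under 0.05 they were 1 and 3 with PBRM1 shRNA in VHL-/- and VHL+/+ cells and 1 with KDM5C shRNA in VHL-/- cells, of 3 genes each, against 18.1%, 15.3% and 17.5% of all genes. Their median difference was -0.34 and -0.35 with PBRM1 shRNA in VHL-/- and VHL+/+ cells and -0.24 in both with KDM5C shRNA, against a median over all genes of 0.00. HSPH1 read 12.32, 12.32 and 11.90 with SCR, 12.05, 12.12 and 11.59 with PBRM1 shRNA, and 12.48, 12.46 and 11.29 with KDM5C shRNA in VHL-/- cells. HSPH1 in VHL+/+ cells read 12.38, 12.43 and 11.81, then 12.24, 11.99 and 11.33, then 11.95, 12.37 and 11.60. The chip 2 array was the lowest of each group, and on the same chip the hairpin arrays of HSPH1 lay under SCR except for KDM5C shRNA replicates 1 and 2 in VHL-/- cells. HSPA4 had the smallest adjusted p of the 3 (-0.34 with PBRM1 shRNA in VHL-/- cells, 0.0991), and passed without VHL-/- PBRM1 shRNA replicate 3 (-0.47, 0.0251).

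Of the 4 small heat shock protein genes under the naming rule HSPB8 alone passed at least once, as did 12.5% of all genes. HSPB1 (HSP27), which binds actin and unfolded proteins, read 14.08, 14.09 and 14.21 with SCR, 14.14, 14.10 and 13.87 with PBRM1 shRNA, and 13.92, 13.84 and 14.10 with KDM5C shRNA in VHL-/- cells. HSPB1 in VHL+/+ cells read 13.99, 13.91 and 14.17, then 13.96, 14.23 and 14.24, then 14.06, 14.09 and 14.13, close to the top of the table (14.66). Its 7 differences ran from -0.17 to 0.14, with 95% intervals inside -0.37 to 0.34.

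HSPB3 was among the dimmest genes. HSPBL2 is an older symbol for the pseudogene HSPB1P1 (chromosome 9, 72007759 to 72008136), whose near-identity with HSPB1 makes its signal uncertain. It read 10.10, 10.28 and 10.77 with KDM5C shRNA and 10.73, 10.86 and 10.64 with SCR in VHL-/- cells, a difference of -0.36 (adjusted p = 0.222), and without the third KDM5C shRNA array it passed (-0.60, adjusted p = 0.0101). Without the same array HSPBL2 was also higher with VHL in KDM5C shRNA cells (0.78, adjusted p = 0.00301), against 0.53 (0.0804) with it.

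The mitochondrial chaperonin genes did not pass. HSPD1 alone reached an unadjusted p under 0.05 in 1 of the 7 comparisons (0.34 higher with VHL in SCR cells), where 15.6% of all genes did. HSPD1 (HSP60) read 12.09, 11.78 and 11.90, then 11.78, 11.85 and 12.01, then 12.31, 12.45 and 11.71 with SCR, PBRM1 shRNA and KDM5C shRNA in VHL-/- cells. HSPD1 in VHL+/+ cells read 12.36, 12.39 and 12.04, then 12.27, 11.90 and 11.74, then 12.16, 12.24 and 11.73. HSPE1 (HSP10), its lid, ran from 10.25 to 11.77, and both extremes were in VHL+/+ cells, on SCR replicate 2 and PBRM1 shRNA replicate 2. All groups of both genes overlapped with at least 1 other group.

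HSPE1 read 11.56, 11.23 and 11.18, then 11.33, 10.94 and 10.84, then 11.13, 11.06 and 10.89 with SCR, PBRM1 shRNA and KDM5C shRNA in VHL-/- cells. HSPE1 in VHL+/+ cells read 11.50, 10.25 and 11.15, then 11.75, 11.77 and 10.67, then 11.62, 10.57 and 11.25. The spread within VHL+/+ groups of HSPE1 exceeded every difference between group means.

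Of the 35 DNAJ genes 32 passed in no comparison, and DNAJB2, DNAJC12 and DNAJC13 passed at least once, as did 12.5% of all genes. The median difference over all 35 lay between -0.05 and 0.06 in all 7. DNAJB1, the main stress-inducible DNAJ protein, read 9.54, 10.01 and 9.98 with SCR, 9.52, 9.95 and 9.43 with PBRM1 shRNA, and 9.62, 9.96 and 9.42 with KDM5C shRNA in VHL-/- cells. DNAJB1 in VHL+/+ cells read 9.66, 9.86 and 9.58, then 9.71, 9.81 and 9.43, then 9.91, 9.71 and 9.42. Its groups overlapped, with hairpin differences from -0.21 to -0.01.

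DNAJA1, a farnesylated partner of HSC70, read 12.60, 12.75 and 12.42, then 12.75, 12.78 and 12.05, then 12.27, 12.93 and 12.08 with SCR, PBRM1 shRNA and KDM5C shRNA in VHL-/- cells. DNAJA1 in VHL+/+ cells read 12.43, 12.80 and 12.02, then 12.49, 12.74 and 11.73, then 12.60, 12.61 and 12.07. Replicate 3 was the lowest array of DNAJA1 in each group, and no difference between groups exceeded 0.21 in size.

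DNAJB9 (ERdj4), an ER co-chaperone of BiP, read 8.78, 8.98 and 8.64 with SCR, 8.47, 8.51 and 8.33 with PBRM1 shRNA, and 8.20, 8.80 and 8.17 with KDM5C shRNA in VHL-/- cells. DNAJB9 in VHL+/+ cells read 8.90, 9.13 and 9.03, then 8.75, 8.79 and 8.92, then 8.43, 8.73 and 8.64. Hairpin arrays of DNAJB9 lay under SCR but for VHL-/- KDM5C shRNA replicate 2 (8.80) and VHL+/+ PBRM1 shRNA replicate 3 (8.92).

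The 4 hairpin differences of DNAJB9 were -0.37 (adjusted p = 0.153) and -0.20 (0.557) for PBRM1 shRNA in VHL-/- and VHL+/+ cells, and -0.41 (0.107) and -0.42 (0.0993) for KDM5C shRNA. Without VHL-/- KDM5C shRNA replicate 2 DNAJB9 was lower in 3 of the 4 comparisons, with adjusted p = 0.00654 for KDM5C shRNA in VHL-/- cells (-0.61), 0.0266 for KDM5C shRNA in VHL+/+ cells and 0.0434 for PBRM1 shRNA in VHL-/- cells. Its values were thus below SCR where those of HSPA5 were above, although both genes belong to the unfolded protein response. DNAJC3, an ER co-chaperone of the same response, stayed between 6.95 and 7.37 on all arrays, with differences from -0.17 to 0.14.

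By place, none of the 8 ER members and none of the 8 mitochondrial members passed by limma in any of the 7 comparisons. At an unadjusted p under 0.05 there were 0 to 3 and 0 to 1 of them, against 13.5% to 18.4% of all genes. All passing members but DNAJC13 were among the 25 placed in the cytosol. In the 4 hairpin comparisons, which share SCR arrays, 68% to 80% of these 25 lay below SCR, against 49.0% to 50.7% of all genes. Their median difference ran from -0.16 to -0.12. The 25 are not independent of each other, since HSP90AA1, HSPA1B, HSPH1, HSPA8 and DNAJA1 were all lowest on replicate 3 in every group. With VHL 52% to 60% of the 25 were lower, against 48.4% to 50.1%. Some members, among them DNAJB12, DNAJB14 and DNAJC13, were given no place, so the sets may be incomplete.

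A few members crossed the threshold only when 1 array was left out. With KDM5C shRNA in VHL+/+ cells these were DNAJC8 (0.37, adjusted p = 0.0328, without VHL+/+ SCR replicate 2), HSPB3 (0.34, 0.0377, without VHL+/+ KDM5C shRNA replicate 1) and HSPBAP1 (-0.35, 0.0240, without VHL+/+ KDM5C shRNA replicate 3). With KDM5C shRNA in VHL-/- cells HSPA13 did so without VHL-/- KDM5C shRNA replicate 3 (-0.31, 0.0271), and DNAJC10 without the same array for VHL in KDM5C shRNA cells (0.51, 0.0259). HSPB3 did so for VHL in KDM5C shRNA cells without VHL+/+ KDM5C shRNA replicate 1 (0.33, 0.0468).

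The effect of a hairpin was also compared between VHL states, and the hairpins with each other. No member and no gene passed for the difference of the PBRM1 shRNA effect or of the KDM5C shRNA effect between VHL+/+ and VHL-/- cells by limma (0% of all genes). At an unadjusted p under 0.05 these were 4 members (6.67%) and 553 genes (4.21%) for PBRM1 shRNA, and 8 members (13.3%) and 1014 genes (7.72%) for KDM5C shRNA. PBRM1 shRNA against KDM5C shRNA gave no passing member or gene in either VHL state (0%), with 3 members (5%, against 5.38% of genes) in VHL-/- cells and 4 members (6.67%, against 4.15%) in VHL+/+ cells at an unadjusted p under 0.05. For HSPB8 the difference of the hairpins in VHL-/- cells was -0.12 with a 95% interval from -0.39 to 0.15, and for DNAJB2 it was 0.20 with an interval from -0.01 to 0.40.

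Between the chips 22 members (36.7%) passed, against 23.8% of all genes. Of these 17 members (28.3%) were lower against 11.8% of all genes, and 5 (8.33%) were higher against 12.1% of all genes. The lower ones included HSPA1B (-0.83), HSPA1A (-0.77), HSPH1 (-0.67), DNAJA1 (-0.58), HSP90AA1 (-0.52), HSP90AB1 (-0.49), HSPA4L (-0.47), HSPA8 (-0.46), DNAJC9 (-0.41), DNAJB11 (-0.34) and HSPD1 (-0.27). HSF1 is known to drive several of these, among them HSPA1A, HSPA1B, HSPH1, HSPA8 and HSP90AA1. Its targets HSPB1 and DNAJB1 did not pass between the chips. The part of HSF1 in the difference between the chips was not tested. The higher ones were DNAJC12 (0.39), DNAJC22 (0.28), HSPA12A (0.22), DNAJC13 (0.21) and DNAJC4 (0.19).

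In 8 members (13.3%) replicate 3 was the lowest array in all 6 groups, as in 4.61% of all genes. These were HSP90AA1, HSPA1B, HSPA8, HSPH1, DNAJA1, DNAJB11, DNAJC5 and DNAJC9. The size of the gap differed between groups, from -1.45 to -0.39 for HSPA1B and from -1.18 to -0.43 for HSPH1. Of the 16 members lower on chip 2 with a promoter window, 5 held a heat shock element, against 6 of the other 38. The near-identical copies HSPA1A and HSPA1B are both among the 5. The element counted for HSPA1L, among the 6, is the one counted for HSPA1A. HSPH1 and HSP90AA1 held none. The part of these elements in the difference between the chips was not tested. Hybridisation, culture and any other difference of replicate 3 cannot be told apart here.

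**Figure D4:**
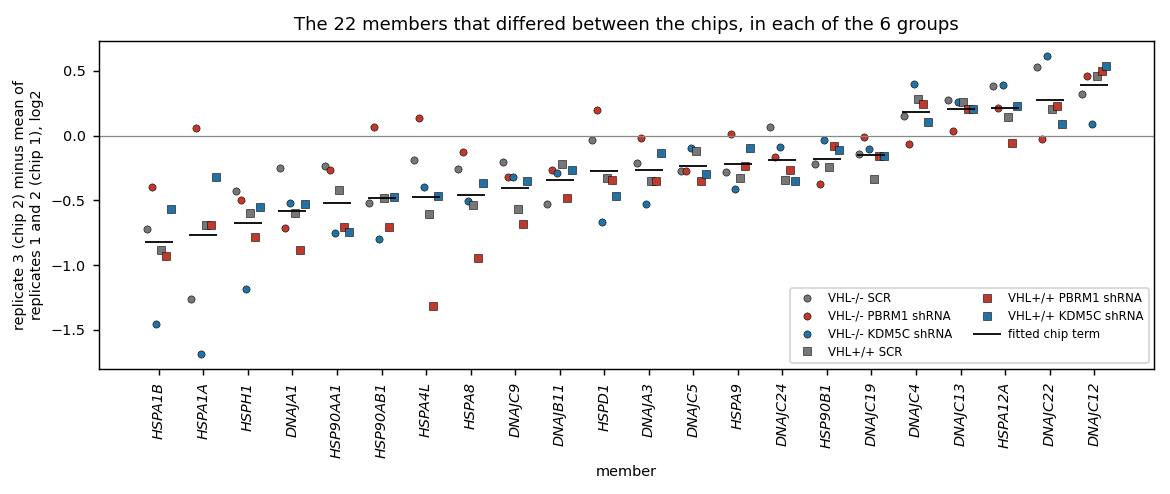
Replicate 3 (chip 2) minus the mean of replicates 1 and 2 (chip 1), in log2 units, in each of the 6 groups (points) for the 22 members that passed between the chips, with the fitted chip term (line). HSPA1B, HSPH1, DNAJA1 and HSP90AA1 lie under 0 in all 6 groups, and DNAJC12 and DNAJC13 above 0.

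Partners of these chaperones outside the naming rule were counted over all 7 comparisons. Of the transcription factors HSF1, HSF2 and HSF4 none passed. HSBP1, which binds HSF1, was 0.72 higher with PBRM1 shRNA in VHL-/- cells (limma adjusted p = 0.019) and 0.53 to 0.58 higher in the other 3 hairpin comparisons (adjusted p 0.0655 to 0.0971). Of 14 HSP90 co-chaperones CDC37, the kinase adaptor, was higher with KDM5C shRNA in VHL+/+ cells (0.44, adjusted p = 0.0468), as were 2.39% of all genes. None of the 14 passed elsewhere. None of the 15 genes of the CCT chaperonin and prefoldin passed anywhere by limma, with 0 to 3 at an unadjusted p under 0.05 against 13.5% to 18.4% of all genes.

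Among 15 exchange factors and partners of HSP70, GRPEL2, the exchange factor of mitochondrial HSP70, rose in VHL-/- cells with PBRM1 shRNA (0.43, adjusted p = 0.0232) and KDM5C shRNA (0.49, 0.0112), and BAG2 fell with PBRM1 shRNA (-0.37, 0.0375). GRPEL2 was also the one gene to pass among 10 mitochondrial chaperones and proteases. BAG3, the partner of HSPB8, did not pass in any comparison (-0.16 to 0.17). Of 17 ER folding genes, CANX (0.34), PDIA4 (0.34) and EDEM1 (0.41) rose with PBRM1 shRNA in VHL-/- cells, CANX with KDM5C shRNA in VHL-/- cells (0.30) and SDF2L1 with KDM5C shRNA in VHL+/+ cells (0.62). Over all genes 2.79%, 2.4% and 2.39% were higher in these 3 comparisons, and 2.65% were lower in the first, where BAG2 fell.

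CRYAB, the small heat shock protein alphaB-crystallin that the naming rule leaves out, passed in all 7 comparisons. It read 7.52, 7.65 and 7.58 with SCR, 6.86, 6.88 and 6.89 with PBRM1 shRNA, and 6.79, 6.87 and 6.75 with KDM5C shRNA in VHL-/- cells. CRYAB in VHL+/+ cells read 8.17, 8.11 and 8.39, then 7.43, 7.13 and 7.54, then 7.36, 7.40 and 7.66. The hairpin arrays lay under SCR within each VHL state, and those of VHL-/- cells were under the lower quartile of all genes (6.90). Detection values were not used here, so CRYAB was not shown to be above background on those arrays, and its differences that involve them may be bounds.

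CRYAB fell by 0.71 in VHL-/- and 0.86 in VHL+/+ cells with PBRM1 shRNA, and by 0.78 and 0.75 with KDM5C shRNA (adjusted p 8.03e-05 to 2.63e-04). It rose by 0.64, 0.49 and 0.67 with VHL in SCR, PBRM1 shRNA and KDM5C shRNA cells (adjusted p 6.28e-04 to 0.00768). Of the 16 measured heat shock response genes outside the rule, the other to pass was ZFAND2A, an arsenite- and heat-inducible gene, lower with VHL by 0.36 to 0.46. Over all genes 12.5% passed in at least 1 of the 7 comparisons.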

How the data were processed

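A total of 18 RNA samples of 786-O cells were profiled on Illumina HumanHT-12 V4 bead arrays. The authors preprocessed the scans in GenomeStudio (version not given in the sources used here), then applied a background correction that keeps values positive, a log2 transformation and quantile normalization with limma, kept probes called present, and took the mean over probes of one gene. The deposited log2 values were used as they stand. Detection p-values and probe-level signals were not used here, so where probes of a gene disagreed is unknown. The authors' methods name ComBat for heat maps, and whether it entered the deposited values is not stated.

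All 18 arrays were fitted with limma 3.58.1 in R 4.3.3 (a mean per group plus chip, then eBayes), and p-values were adjusted by Benjamini-Hochberg over all 13141 genes. A gene passed at an adjusted p under 0.05, and a second count required a fold of 1.5. The fit had 11 residual degrees of freedom, which sets the precision of each value. The script was tested on simulated data.

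The members and gene lists were chosen with earlier results of these data known, so no count over them is independent evidence. Genes plotted on every array were the members that passed in at least 1 of 7 comparisons and 16 defining members of the classes, and up to 5 passing genes were named per list. PBRM1 shRNA against KDM5C shRNA was added after the data were seen. Members crossing the threshold only in other fits, BAG3 and the members that differed between the chips were named after their values were seen. Symbols were matched to RefSeq (GRCh38.p14), 59 by current symbol and 1 by a synonym. Alternatives covered the chip term, the arrays fitted, a replicate block, fold and expression filters, centring, cyclic loess, a robust trended eBayes and leaving out each array.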

Additional observations from a re-analysis of the deposited data

How the results depend on the processing

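No passing value of a member changed sign under any alternative. The counts of passing members are given in the order PBRM1 shRNA in VHL-/- and VHL+/+ cells, KDM5C shRNA in VHL-/- and VHL+/+ cells, and VHL in SCR, PBRM1 shRNA and KDM5C shRNA cells, where they were 3, 2, 5, 2, 2, 3 and 2. Without the chip term they were 1, 1, 2, 1, 0, 1 and 1. With only the arrays of each comparison they were 8, 1, 3, 3, 2, 1 and 0, and the 5 members this added with PBRM1 shRNA in VHL-/- cells were HSPA5, HSPA1B, HSPA4L, HSP90AA1 and DNAJB9. With a fold of at least 1.5 they were 1, 0, 1, 0, 0, 1 and 1, and with 2 they were 0 throughout. Cyclic loess gave 1 for VHL in KDM5C shRNA cells, where DNAJC12 was lost (0.0526), and median centring lost DNAJC12 with KDM5C shRNA in VHL-/- cells (0.05002). The number of passing members stayed within 1.5 times of these under the expression filter, median centring and the robust trended eBayes. Except for the fold of 1.5, the share of all genes that passed in the other fits of this section was not counted. Whether a change in the number of members exceeded that of other genes is therefore not known.

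Fits without 1 array at a time gave 1 to 5, 1 to 2, 2 to 6, 1 to 4, 1 to 2, 1 to 3 and 1 to 4 members in the same order, and 0 for both differences of the hairpin effect between VHL states. HSPB8 passed its 4 comparisons in all 18 of these fits, and DNAJB2 passed with PBRM1 shRNA and KDM5C shRNA in VHL+/+ cells in all 18.

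The replicate numbers were not taken as pairs, since some same-numbered arrays of different groups correlated weakly or below 0 in their deviations from the group means. These correlations ran from -0.17 to 0.47 for replicate 1 (median 0.15), from 0.11 to 0.43 for replicate 2 (0.28) and from 0.07 to 0.72 for replicate 3 (0.52). With the replicate number as a block instead of the chip the fit gave 3, 1, 4, 2, 2, 3 and 1 passing members. The calls lost with the block were those of DNAJC12 with PBRM1 shRNA in VHL+/+ cells (adjusted p = 0.0506), KDM5C shRNA in VHL-/- cells (0.0598) and VHL in KDM5C shRNA cells (0.0620). Among arrays of other groups, 14 of 18 arrays correlated best with one of their own number, by deviation from the group mean. Whether the replicates were matched is not known.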
